A study of Mus musculus with 6 samples.

Results

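Genes of membrane transporters for amino acids, sugars and monocarboxylates were examined in MC3T3-E1 cells, an osteoblastic line from mouse calvaria. The members were the rows whose gene symbol belongs to the solute carrier families Slc1, Slc2, Slc3, Slc5, Slc6, Slc7, Slc16, Slc36, Slc38 and Slc43, without Slc2a1, Slc16a3 and Slc7a11. The rule took 103 of the 43346 rows of the table, and 98 of these 103 are transporter genes. The other 5 rows (Slc7a6os, Slc36a1os, Slc36a3os, Slc6a19os and Slc2a4rg-ps) are named after a neighbouring or related gene and encode no transporter. There were 3 libraries of a control line and 3 of a line edited by CRISPR in Rorβ (gene Rorb), a retinoid-related orphan nuclear receptor. The labels name no other allele or agent, and both lines had spent 2 days in osteoblastic medium after reaching confluence. They state neither how many edited clones were used nor whether replicates were separate cultures, and p-values therefore cover the spread among these libraries alone, which may be technical. The edit and any other difference between the 2 lines cannot be told apart.

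Solute carriers move small molecules across membranes, either as facilitators, as exchangers or coupled to sodium or protons. Osteoblasts that lay down collagen need large amounts of glycine and proline, and they take up glucose and glutamine as fuel and as building blocks. Many amino acid exchangers consist of a light chain that carries the substrate and a heavy chain, such as Slc3a2, that brings it to the surface. Several of their genes are known targets of the transcription factor ATF4, which cells use when amino acids run short.

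Values are reads relative to library size (an RPM scale), adjusted by the authors with TMM factors (trimmed mean of M-values) and not corrected for gene length. Libraries held 34662707 to 42603315 reads in genes. Rorb itself gave 0.0271, 0.0779 and 0 in control against 1.87, 1.69 and 2.52 in the edited line as labelled. RNA of the targeted gene was thus higher in every library labelled as edited, so directions are given by label only, and the location of the edit within the gene is not given in the labels. The osteoblast markers Runx2, Sp7, Alpl, Col1a1, Ibsp and Bglap all passed the filter on low values. Of these 6, Ibsp (128 ± 3.82 to 491 ± 26.7), Alpl, Runx2 and Sp7 rose and Col1a1 (35509 ± 1018 to 20891 ± 539) and Bglap fell. Their summed value, 34828 to 36660 in control and 21198 to 22122 in the labelled libraries, is mostly Col1a1. A single gene each of the chondrocyte (Col2a1), muscle and macrophage lists passed too. Fat cell, endothelial and neuronal markers all lay below it, with summed values of at most 0.0868, 0.408 and 0.0779. The share of reads in 3 rows that hold ribosomal RNA was 16.9% to 25.4% in control and 13.1% to 15.2% in the labelled libraries, and its part in the results was not tested. Genes also shifted together by chromosome. The median log2 fold change was 0.65 over 412 tested genes of chromosome X, -0.53 over 387 of chromosome 14 and -0.26 over 460 of chromosome 15. It was 0.20 over 754 tested genes of chromosome 5 and 0.20 over 432 of chromosome 13. Values after subtracting each chromosome's median are therefore given where they bear on a member. In such bulk samples, fewer cells of a type and less RNA per cell cannot be told apart.

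Of the 98 transporter genes, 38 were expressed, meaning that 3 or more libraries reached a value of 1. Another 44 had reads below that filter, with mean values of 0.00362 to 0.956, and 16 had none in any library, which allows up to 3 reads in each. Expressed genes were found in 16 of the 17 substrate families. The exception was the monoamine and GABA carriers of the Slc6 family, whose 7 members had between 0 and 10 reads in a library. Between the groups, 11 of the 38 expressed transporters rose and 17 fell in the Rorβ-CRISPR-labelled libraries (limma-trend, Benjamini-Hochberg adjusted p of 0.05 over all tested rows), and 10 did not pass. That is 73.7% called, against 66.2% of the 13498 tested rows. Lower calls made up 44.7% of the transporters against 33.3% of all tested rows, and higher calls 28.9% against 32.9%. Groups were fully separate for 29 transporters, or 76.3%, against 68.4% of all tested rows. The median log2 fold change was -0.07 for the transporters and 0.00 for all tested rows. The share of transporters called therefore lay near that of all genes, and the members are described one by one. Of the called transporters, 5 fell by 1.5-fold or beyond, counted on log2(value + 1), which is 13.2% against 7.99% of all tested rows, and 3 rose (7.89% against 5.83%). Among those that fell were Slc43a2, Slc1a3, Slc7a7 and Slc16a9, and those that rose were Slc36a2, Slc6a8 and Slc5a6. Of these, Slc36a2 and Slc7a7 passed the filter only through the group where they were high, so their calls follow partly from the filter and they are described without a p. Scaled by library size only, which lifts the median gene by 0.22 (log2), 17 of the 38 were called higher and 8 lower. Relative to that lift, all 28 transporters called in the main fit kept their sign.

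**Figure D1:**
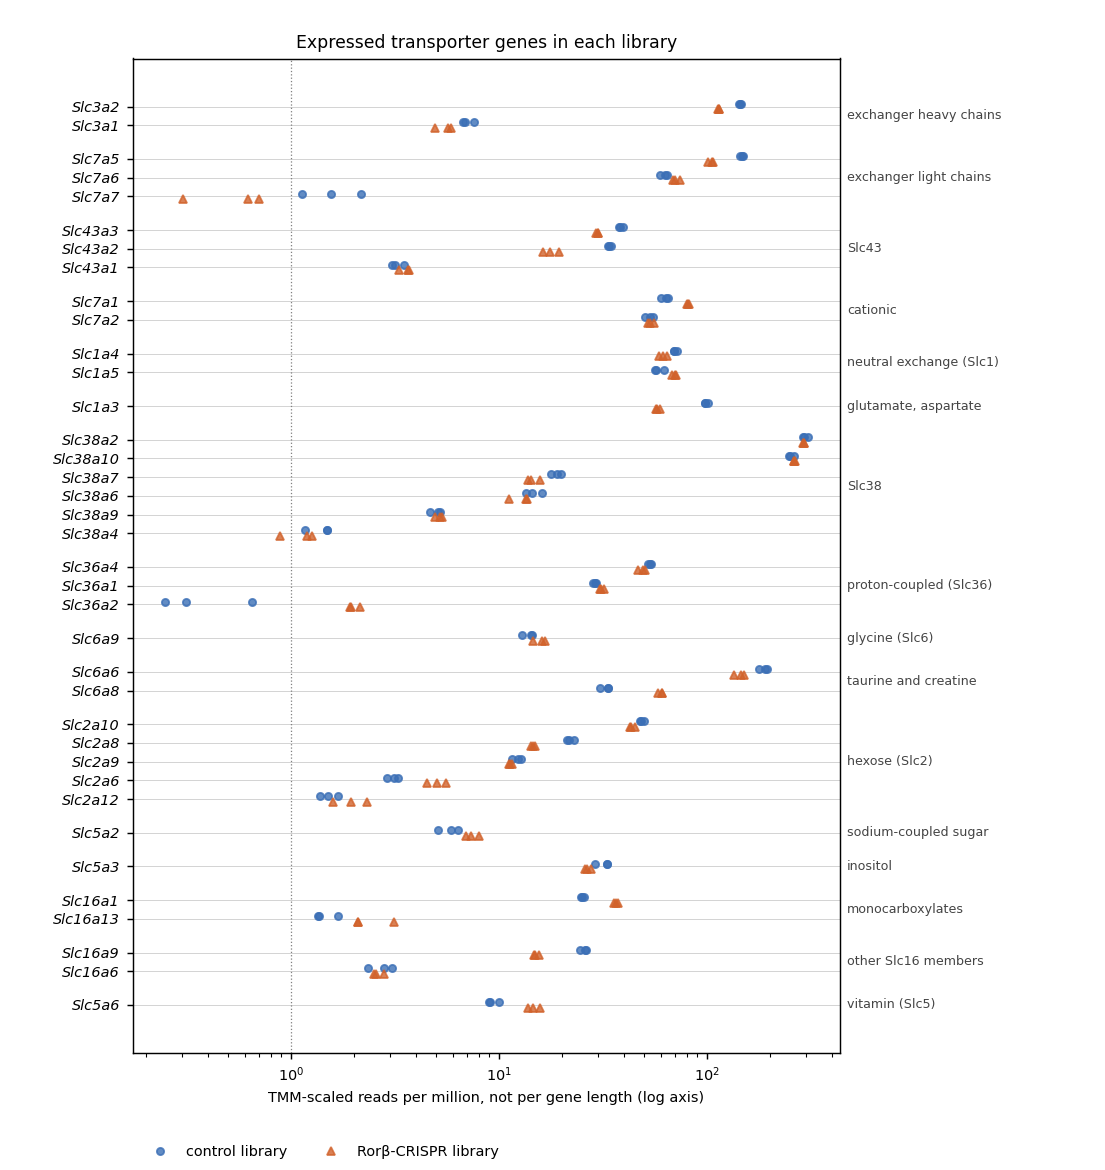
Each row is one of 37 expressed transporter genes, grouped by substrate family, and each point is one library, with circles for the 3 control libraries and triangles for the 3 labelled Rorβ-CRISPR. The horizontal log axis gives the TMM-scaled value (RPM scale), and the dotted line marks a value of 1. Slc38a2 and Slc38a10 lie at the right end, at 290.5 to 305 and 249 to 264, while Slc36a2, near the left end, lies at 0.247 to 0.649 in control and 1.93 to 2.15 in the labelled line.

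Levels were compared between genes after division by exon length (merged exons of GENCODE vM21, GRCm38), since longer transcripts give more reads. Among the expressed members of the set, which leaves out Slc2a1, Slc16a3 and Slc7a11, the amino acid carriers led in control cells. Slc3a2 (TMM-scaled value per kb of exon, 40.8 ± 0.463), Slc7a5 (39.7 ± 0.686) and Slc38a10 (39.5 ± 1.09) stood at the top, followed by Slc38a2 at 33.5 ± 0.880 (SD, n = 3 each). The control values of Slc3a2 lay just above those of Slc7a5, while Slc7a5 and Slc38a10 differed by less than their SDs. Under the Rorβ-CRISPR label the order of these 4 changed to Slc38a10 (41.0 ± 0.133), Slc38a2 (33.1 ± 0.196), Slc3a2 (32.3 ± 0.297) and Slc7a5 (28.2 ± 0.903). The taurine carrier Slc6a6 held rank 5 in both groups, at 22.2 ± 0.983 and 17.0 ± 0.906 per kb. Slc6a8 went from rank 15 to rank 10 of 38 and Slc16a1 from 17 to 11. Among hexose carriers in the set Slc2a10 was highest in both groups, at 13.6 ± 0.294 and 12.2 ± 0.321 per kb.

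**Figure D2:**
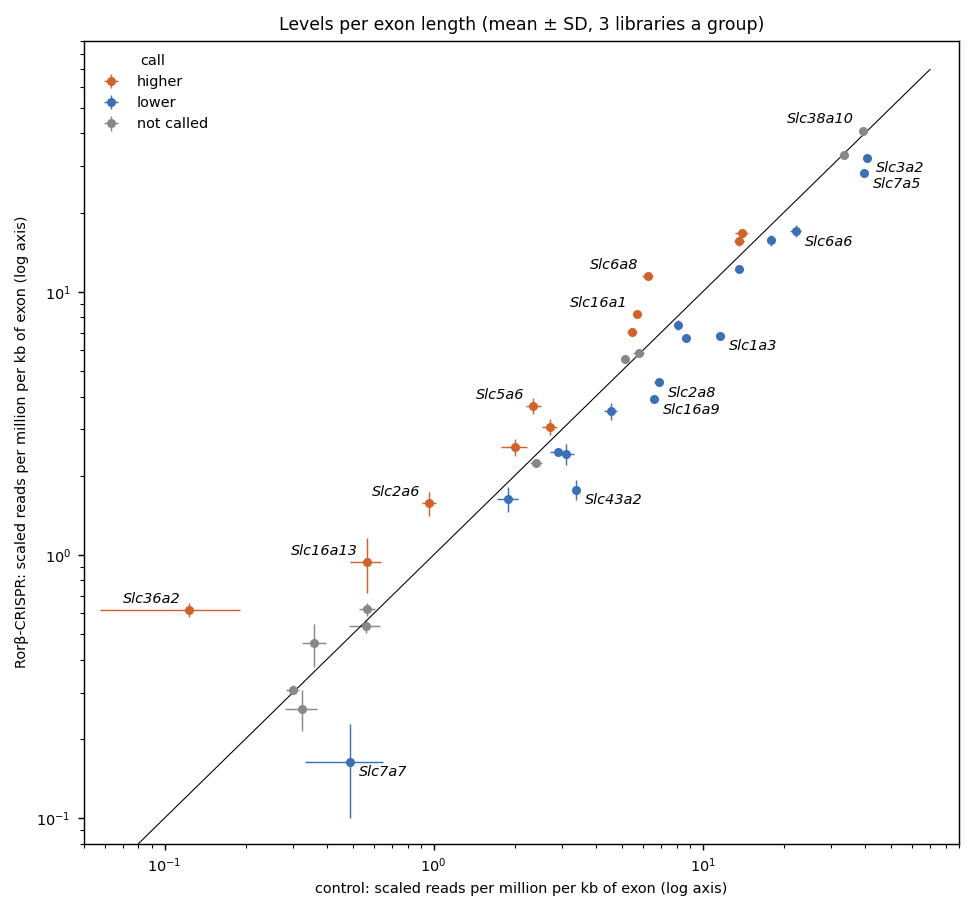
Mean level per kb of exon of 37 expressed transporters in control libraries (horizontal, log axis) against Rorβ-CRISPR-labelled libraries (vertical, log axis), with SDs over 3 libraries and colours for the call. Slc3a2 and Slc7a5 lie below the diagonal at the top, Slc6a8 and Slc16a1 lie above it in the middle, and Slc36a2 (0.124 to 0.618) lies far above it at the bottom.

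Both chains of the main exchanger of large neutral amino acids, Slc7a5 and Slc3a2, and the facilitator Slc43a2 were lower in the Rorβ-CRISPR-labelled libraries, while Slc43a1 was not called. Slc7a5 (LAT1), the light chain that imports leucine and other large neutral amino acids in exchange for glutamine, had values of 145, 150 and 148 in control and 106, 107 and 101 in the labelled libraries. The groups were far apart, and the fall had a log2 fold change of -0.49 (SE 0.032, limma-trend adjusted p = 2.71e-19). Its heavy chain Slc3a2 (4F2hc, CD98) gave 146, 144 and 143 against 113, 115 and 114. Its log2 fold change was -0.34 (SE 0.030, limma-trend adjusted p = 5.00e-14). With library size only the change of Slc3a2 was -0.11 and not called (limma-trend adjusted p = 0.107). Slc43a2 (LAT4), a facilitator that lets large neutral amino acids leave or enter without exchange, fell from 33.9, 33.4 and 34.7 to 17.6, 19.5 and 16.3. Its level was thus close to halved, with a log2 fold change of -0.90 (SE 0.058, limma-trend adjusted p = 2.15e-19). Slc43a3, a carrier of purine nucleobases, fell from 38.5 ± 0.927 to 29.8 ± 0.373 (log2 fold change -0.36), but was not called with library size only (-0.14). Slc43a1 (LAT3) was not called, at 3.24 ± 0.233 and 3.55 ± 0.209, but was called higher with library size only (0.28, limma-trend adjusted p = 0.0234).

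The other partners of Slc3a2 did not move as one. Slc7a6 (y+LAT2), which exports arginine in exchange for neutral amino acids and sodium, rose from 59.4, 64.4 and 63.2 to 70.6, 74.1 and 68.7 (log2 fold change 0.19, SE 0.040, limma-trend adjusted p = 4.28e-05). Slc7a6os, an opposite-strand neighbour of Slc7a6 among the rows that encode no transporter, rose as well, from 17.4 ± 0.836 to 24.9 ± 0.871. The related Slc7a7 (y+LAT1) was far scarcer, with values of 1.14, 2.18 and 1.56 in control and 0.623, 0.304 and 0.703 in the labelled libraries. Its log2 fold change was -0.76, or -0.23 after the median of chromosome 14 was taken off. Slc7a8 (LAT2), also on chromosome 14 and named after its values were seen, lay below the filter, with 30, 12 and 30 reads in the control libraries and 0 in all 3 labelled ones. Against a floor of 3 reads in each labelled library, its mean value was at least 8.70-fold lower there. Slc3a1 (rBAT), a heavy chain that pairs with Slc7a9, fell from 7.07 ± 0.481 to 5.49 ± 0.499 (log2 fold change -0.32), but 26.5% of its exon bases overlap Prepl on the opposite strand. No reads fell on Slc7a9 in any library. The call of Slc3a1 was lost with library size only (-0.12).

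Carriers of cationic and small neutral amino acids differed by small amounts. Slc7a1 (CAT1), the general importer of arginine and lysine, rose from 63.6, 65.2 and 60.0 to 81.2, 79.9 and 82.3 in the Rorβ-CRISPR-labelled libraries. The groups did not overlap, and the log2 fold change was 0.36 (SE 0.038, limma-trend adjusted p = 6.20e-12), or 0.16 after chromosome 5 was centred. Slc7a2 (CAT2), at 5.79 ± 0.279 per kb in control against 5.46 ± 0.233 for Slc7a1, had TMM-scaled values of 52.9 ± 2.55 and 53.5 ± 1.79 and was not called. Slc7a3, on chromosome X and picked after its values were seen, lay below the filter with 3, 4 and 6 reads in control and 16, 13 and 14 in the labelled libraries. The exchangers Slc1a4 and Slc1a5 went opposite ways. Slc1a5 (ASCT2), which brings in glutamine, rose from 56.8, 62.2 and 56.3 to 71.2, 68.3 and 70.1 (log2 fold change 0.26, SE 0.040, limma-trend adjusted p = 2.45e-07). Slc1a4 (ASCT1), which exchanges alanine, serine and cysteine, fell from 69.1, 72.0 and 69.5 to 61.5, 64.5 and 58.6 (log2 fold change -0.19), or 0.04 and not called with library size only. Per kb, Slc1a4 was above Slc1a5 in control (17.9 ± 0.394 and 13.996 ± 0.784), and in the labelled libraries the means were 15.7 ± 0.753 and 16.7 ± 0.360.

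The acidic amino acid carrier Slc1a3 (GLAST, EAAT1), which imports glutamate and aspartate with sodium, was the only expressed gene of its 5 in the set. Its values were 98.1, 98.3 and 101 in control and 59.6, 56.8 and 57.5 in the Rorβ-CRISPR-labelled libraries. All labelled libraries lay far below all control ones, with a log2 fold change of -0.76 (SE 0.036, limma-trend adjusted p = 1.47e-24). Slc1a3 lies on chromosome 15, and after centring on that chromosome its change was -0.51 and still called. Of the glutamate carriers below the filter, Slc1a6 had 24, 33 and 42 reads in control and 13, 12 and 17 in the labelled libraries. Slc1a2, the main glutamate carrier of brain astrocytes, had 18, 23 and 8 reads against 0, 1 and 5. Slc1a6 and Slc1a2 were picked after their values were seen and were not tested.

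Among the sodium-coupled neutral amino acid carriers of the Slc38 family, Slc38a2 and Slc38a10 held the highest values of the set before correction for length. Of the 6 expressed members 2 fell and 4 were not called. Slc38a2 (SNAT2), which brings in proline, alanine and glutamine, had values of 292, 305 and 291 in control and 290, 292 and 294 in the Rorβ-CRISPR-labelled libraries. These ranges overlapped, and the log2 fold change of -0.02 (SE 0.026) was not called (limma-trend adjusted p = 0.527). Slc38a2 lies on chromosome 15, whose genes were lower, and against the median of that chromosome it was higher by 0.24 (log2). It was also higher with library size only (0.21). Slc38a10 was 253 ± 6.98 and 263 ± 0.852, not called, but it was called higher without control replicate 3 (0.08, limma-trend adjusted p = 0.0201), after chromosome centring (0.08) and with library size only (0.28). Slc38a7, a lysosomal exporter of glutamine, fell from 18.9 ± 1.02 to 14.6 ± 1.02 (log2 fold change -0.35), a call lost with library size only (-0.14). Slc38a6 fell from 14.7 ± 1.32 to 12.8 ± 1.39 with overlapping groups, a call that edgeR and DESeq2 did not make and that turned to 0.02 with library size only. The call of Slc38a6 was also lost without control replicate 3 (limma-trend adjusted p = 0.189) and without labelled replicate 1 (limma-trend adjusted p = 0.262). Slc38a9, the lysosomal arginine sensor that signals to mTORC1, was 5.003 ± 0.291 and 5.14 ± 0.218, and Slc38a4, an imprinted gene, was 1.38 ± 0.184 and 1.11 ± 0.199. Neither was called.

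The proton-coupled carriers of the Slc36 family include 3 expressed members. Slc36a2 (PAT2), which carries glycine, proline and alanine, had values of 0.649, 0.312 and 0.247 in control and 1.95, 1.93 and 2.15 in the Rorβ-CRISPR-labelled libraries. The reads behind them were 24, 12 and 10 in control and 72, 89 and 95 in the labelled libraries, so every labelled library was well above every control library. The ratio of means was 4.995, and the log2 fold change was 1.11 on the log2(value + 1) scale and 2.15 with a pseudocount of 0.1. Per kb it remained one of the scarcest carriers, at 0.618 ± 0.038. Slc36a1 (PAT1) and Slc36a4 (PAT4), which sit largely on lysosomes and other inner membranes, were far more abundant. Slc36a4 went from 53.0, 53.8 and 52.1 to 50.6, 49.5 and 46.5 (log2 fold change -0.11, limma-trend adjusted p = 0.0154), but was 0.11 and not called with library size only. The call of Slc36a4 was lost without control replicate 2 (limma-trend adjusted p = 0.0584) and without labelled replicate 3 (limma-trend adjusted p = 0.127). Slc36a1 was 28.9 ± 0.424 and 31.2 ± 0.702 and was not called, though it was called higher by edgeR (adjusted p = 0.0401), after chromosome centring (0.13, limma-trend adjusted p = 0.0180) and with library size only (0.33). The glycine carrier Slc6a9 (GlyT1) rose from 14.4, 14.3 and 12.9 to 16.6, 16.2 and 14.6 (log2 fold change 0.17, limma-trend adjusted p = 0.0253). That call was lost without control replicate 3 (limma-trend adjusted p = 0.153) or without replicate 1 (0.122) or 2 (0.0792) of the labelled line. Also, 30.2% of the exon bases of Slc6a9 overlap other genes on the opposite strand.

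**Figure D3:**
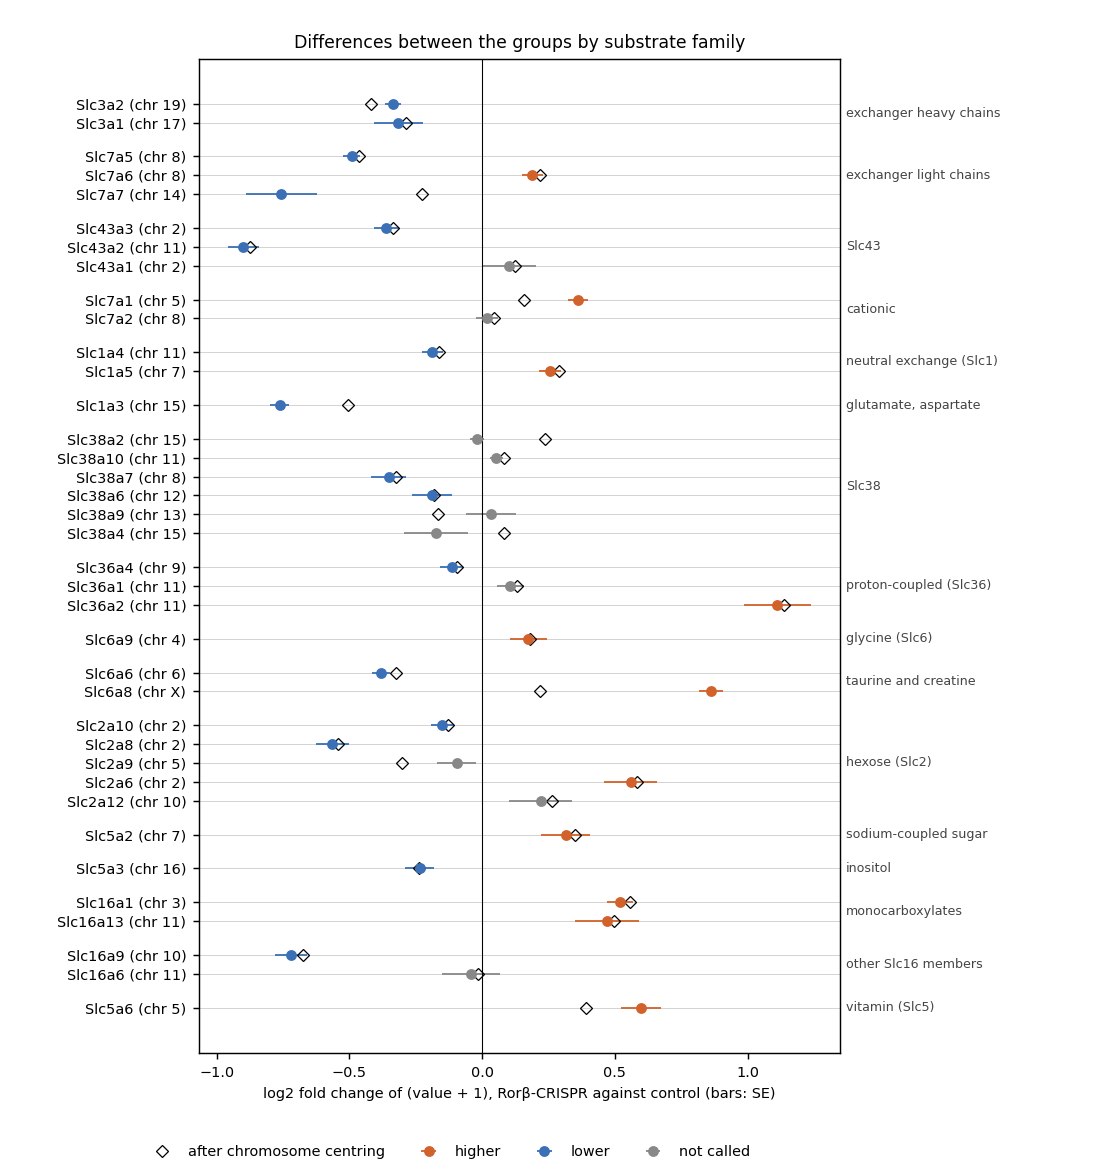
Log2 fold change of (value + 1) for 37 expressed transporters (horizontal, with SE bars), one gene a row by substrate family, with the chromosome in brackets and colours for the call. Open diamonds give the value after the chromosome's median is taken off. They lie far from the filled points for genes on X, 14 and 15, so that Slc6a8 goes from 0.86 to 0.22 and Slc7a7 from -0.76 to -0.23. Diamonds are also offset for genes on 5 and 13, whose medians were 0.20 each.

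Taurine and creatine carriers went opposite ways. Slc6a6 (TauT), which accumulates the osmolyte taurine, fell from 194, 190 and 178 to 145, 135 and 151 in the Rorβ-CRISPR-labelled libraries (log2 fold change -0.38, SE 0.034, limma-trend adjusted p = 8.09e-12). Slc6a8, the creatine importer, rose from 30.7, 33.5 and 33.3 to 60.6, 58.3 and 60.9, with no overlap. Its log2 fold change was 0.86 (SE 0.045, limma-trend adjusted p = 4.58e-23). Slc6a8 lies on chromosome X, and against the median of X it was higher by only 0.22, still called (limma-trend adjusted p = 0.000118). The summed level of both carriers per kb was 28.4 ± 0.809 in control and 28.5 ± 1.17 in the labelled libraries. Of 8 expressed genes for osmolyte and creatine metabolism, 5 rose and 3 fell, beside 32.9% higher and 33.3% lower calls over all tested rows. With library size only 5 rose and 2 fell, beside 7273 higher and 1985 lower of all 13498 tested rows. Gatm, which makes the precursor of creatine, rose from 1.97 ± 0.135 to 3.73 ± 0.213. Cdo1 and Csad, which make taurine from cysteine, fell from 5.73 ± 0.596 to 0.983 ± 0.250 and from 64.0 ± 1.88 to 35.3 ± 2.70. Their log2 fold changes were -1.77 for Cdo1 and -0.84 for Csad, which is on chromosome 15. Cdo1 did not reach the filter value of 1 in all labelled libraries, so its call follows partly from the filter.

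Hexose facilitators of the Slc2 family changed in both directions. Slc2a10 (GLUT10), whose loss in humans causes a connective tissue disorder of arteries, had values of 47.7, 49.7 and 48.2 in control and 45.0, 42.9 and 43.1 in the Rorβ-CRISPR-labelled libraries. This small fall (log2 fold change -0.15, SE 0.043, limma-trend adjusted p = 0.00202) turned to 0.07, not called, with library size only. Slc2a8 (GLUT8), an intracellular glucose carrier, fell from 21.3, 21.8 and 22.9 to 14.9, 14.5 and 14.2 (log2 fold change -0.56, SE 0.062, limma-trend adjusted p = 2.45e-11). Slc2a6 (GLUT6), which sits on lysosomes, rose from 3.27, 2.91 and 3.12 to 5.06, 5.58 and 4.51 (log2 fold change 0.56, SE 0.102, limma-trend adjusted p = 3.91e-06). Slc2a9, mainly a urate carrier, was 12.2 ± 0.596 and 11.3 ± 0.220, and Slc2a12 was 1.53 ± 0.154 and 1.95 ± 0.367. Neither was called. Slc2a9 lies on chromosome 5 and was called lower after centring (-0.30, limma-trend adjusted p = 0.000506), though it was 0.11 and not called with library size only. Slc2a12 was called higher without labelled replicate 3 (0.31), after centring (0.26) and with library size only (0.36), with limma-trend adjusted p = 0.0351, 0.0450 and 0.00543. The insulin-responsive Slc2a4 (GLUT4) and the neuronal Slc2a3 (GLUT3) lay below the filter, with mean values of at most 0.138 and 0.224.

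Of the sodium-coupled sugar carriers only Slc5a2 (SGLT2), known from the kidney tubule, passed the filter. It rose from 5.11, 6.36 and 5.91 to 8.04, 6.97 and 7.30 (log2 fold change 0.31, limma-trend adjusted p = 0.00246), and 20.6% of its exon bases overlap BC017158 on the opposite strand. Slc5a3 (SMIT1), the sodium-coupled importer of the osmolyte myo-inositol, fell from 33.0, 33.2 and 29.1 to 26.5, 27.8 and 26.0 (log2 fold change -0.24, SE 0.054, limma-trend adjusted p = 0.000143). With library size only its change was -0.02 and not called. Slc5a6, which imports biotin and pantothenate, rose from 10.1, 9.11 and 8.96 to 14.6, 13.8 and 15.8 (log2 fold change 0.60, SE 0.075, limma-trend adjusted p = 1.07e-09). Slc5a6 lies on chromosome 5, whose median was 0.20, and stood at 0.39 after centring, still called.

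Both expressed genes of the set that were grouped as monocarboxylate carriers rose. Expressed Slc16 genes grouped apart, for other or less certain substrates, fell or were not called. Slc16a1 (MCT1), which moves lactate, pyruvate and ketone bodies with protons, had values of 25.0, 25.6 and 24.9 in control and 36.7, 35.6 and 37.3 in the Rorβ-CRISPR-labelled libraries. The labelled libraries were all well above control, with a log2 fold change of 0.52 (SE 0.050, limma-trend adjusted p = 4.09e-13). Slc16a13 rose from 1.35, 1.69 and 1.36 to 3.11, 2.11 and 2.11 (log2 fold change 0.47, SE 0.119, limma-trend adjusted p = 0.000534). Slc16a7 (MCT2) had no reads in any library.

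Other members of the Slc16 family have other or less certain substrates. Slc16a9 (MCT9), a carnitine carrier in humans, fell from 24.5, 26.0 and 26.1 to 14.9, 14.7 and 15.6 (log2 fold change -0.72, SE 0.060, limma-trend adjusted p = 3.05e-15), and 23.5% of its exon bases overlap gene models on the opposite strand. Slc16a6 was 2.73 ± 0.365 and 2.62 ± 0.154, not called. The 2 members of highest mean below the filter were also of this family. Slc16a14 had values of 1.16, 0.883 and 1.31 in control and 0.650, 0.933 and 0.794 in the labelled libraries, and Slc16a5 0.568, 0.701 and 0.866 against 0.569, 0.608 and 1.13. Both pairs of groups overlapped. Picked after their values were seen, Slc16a4 had 22, 7 and 20 reads in control and 25, 53 and 46 in the labelled libraries, and Slc16a8 had 2, 0 and 1 against 8, 15 and 8.

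Genes that act alongside the carriers were read from lists of known partners, whose counts stand beside a background of 32.9% higher and 33.3% lower calls over all tested rows. With library size only, 7273 of the 13498 tested rows were higher and 1985 lower. Of 4 expressed ancillary proteins, 3 fell and 1 rose, or 1 and 1 with library size only. Bsg (basigin), which brings Slc16a1 to the surface, fell from 440, 434 and 449 to 366, 361 and 361 (log2 fold change -0.28), so it went the other way from Slc16a1, although it was -0.06 and not called with library size only. Emb (embigin), another surface partner of monocarboxylate carriers, had values of 1.79, 1.97 and 1.86 in control and 0.433, 0.217 and 0.363 in the labelled libraries. It is counted among the 3 that fell but passed the filter through control alone, so its call follows partly from the filter. Arl6ip5, which restrains a glutamate carrier in the endoplasmic reticulum, rose from 199 ± 3.64 to 238 ± 2.49. Of 13 expressed genes for glucose trapping and uptake control, 9 rose and 3 fell, or 10 and 1 with library size only. Txnip, an arrestin that lowers glucose uptake by removing carriers from the surface, rose from 84.3, 88.1 and 98.2 to 170, 164 and 175 (log2 fold change 0.91, SE 0.043, limma-trend adjusted p = 9.69e-14). Its relative Arrdc4 rose from 4.95, 5.45 and 6.09 to 14.4, 12.02 and 11.8 (log2 fold change 1.08). Tbc1d4, which holds Slc2a4 vesicles inside the cell, fell from 28.8 ± 1.71 to 17.8 ± 0.030 and lies on chromosome 14.

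Of 10 genes for lactate and pyruvate use, 3 rose, 5 fell and 2 did not pass, and their median log2 fold change was -0.14. Ldhb, the lactate dehydrogenase subunit of oxidative tissues, fell from 5.28, 6.62 and 6.14 to 0.704, 1.02 and 1.07 (log2 fold change -1.86, SE 0.111). Not all labelled libraries reached the filter value of 1 for Ldhb, so its call follows partly from the filter. Among the kinases that switch off pyruvate dehydrogenase, Pdk4 fell from 60.3 ± 1.61 to 26.5 ± 0.436. Pdk3, on chromosome X, rose from 21.2 ± 0.990 to 44.0 ± 0.408 (log2 fold change 1.02). Pdha1, named for its chromosome, also lies on X and rose (log2 fold change 0.81). The median of X was 0.65. With library size only this list had 5 higher and 2 lower, beside 7273 higher and 1985 lower of all 13498 tested rows.

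Genes of the amino acid response, which ATF4 governs, were compared next. Of 22 expressed genes, 15 fell, 4 rose and 3 did not pass, beside 33.3% lower and 32.9% higher calls over all tested rows, and their median log2 fold change was -0.27 against 0.00 for all tested rows. With library size only 7 were lower and 4 higher, beside 1985 lower and 7273 higher of all 13498 tested rows. Trib3, a pseudokinase gene induced by ATF4, fell from 7.74, 8.80 and 6.98 to 1.22, 1.65 and 0.998 (log2 fold change -1.95, SE 0.1095). Trib3 did not reach the filter value of 1 in all labelled libraries, so its call follows partly from the filter. Chac1, which breaks down glutathione, fell from 4.44, 4.49 and 3.56 to 1.57, 1.74 and 1.81 (log2 fold change -0.93), and Vldlr, a lipoprotein receptor gene, from 77.8 ± 2.27 to 45.1 ± 5.73. Atf4, named after its values were seen, fell from 208 ± 0.446 to 150 ± 2.54 and lies on chromosome 15. Of transporter genes known as ATF4 targets, Slc7a5, Slc3a2 and Slc1a4 fell, Slc1a5, Slc7a1 and Slc6a9 rose, and Slc38a2 was not called. These targets thus differed in direction among themselves in the main fit. The calls of Slc3a2 and Slc1a4 were lost with library size only, and that of Slc6a9 when some single libraries were left out. The part of ATF4 in these differences was not tested.

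Promoter windows from RefSeq (GRCm38.p6), running from 250 bases before to 50 bases after each gene's start, were found for 27 of the 38 expressed transporters, in 39 windows. They were searched on both strands for TGATGCAA, the core of the amino acid response element that ATF4 binds with a C/EBP partner, and for TAGGTCA, a core of the element that ROR receptors bind. No window of Slc7a5 or Slc36a2 was among the 39, so neither gene was searched. The first core stood in 3 of the 39 windows, belonging to Slc1a4 and Slc7a7, against 0.895% of all 32851 windows. Both windows of Slc7a7 hold the same copy. The second core stood in 1 window, that of Slc2a9, against 2.61% of all windows. These windows are shown because they hold the letters searched for, which are in capitals, in lower case elsewhere and in the direction of the gene.
Slc1a4 (chr11:20332664-20332963, minus strand): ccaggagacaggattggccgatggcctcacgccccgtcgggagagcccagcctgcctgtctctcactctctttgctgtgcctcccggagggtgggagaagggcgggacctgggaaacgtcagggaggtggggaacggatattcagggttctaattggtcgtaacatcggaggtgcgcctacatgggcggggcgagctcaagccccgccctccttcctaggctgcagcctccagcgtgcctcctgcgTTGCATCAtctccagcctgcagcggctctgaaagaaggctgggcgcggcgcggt
Slc7a7 (chr14:54417895-54418194, minus strand): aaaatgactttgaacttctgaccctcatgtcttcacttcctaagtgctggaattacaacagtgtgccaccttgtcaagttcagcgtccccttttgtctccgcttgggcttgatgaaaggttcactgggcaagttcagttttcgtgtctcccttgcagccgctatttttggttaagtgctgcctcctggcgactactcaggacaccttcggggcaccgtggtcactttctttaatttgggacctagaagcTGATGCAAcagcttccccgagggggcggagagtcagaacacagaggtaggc
Slc2a9 (chr5:38483336-38483635, minus strand): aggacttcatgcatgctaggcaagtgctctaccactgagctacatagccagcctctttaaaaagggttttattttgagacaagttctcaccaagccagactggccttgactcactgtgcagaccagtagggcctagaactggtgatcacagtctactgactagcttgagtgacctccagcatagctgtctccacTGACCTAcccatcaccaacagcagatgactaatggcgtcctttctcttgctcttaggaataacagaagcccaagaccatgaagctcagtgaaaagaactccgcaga
In Slc1a4 the capitals are the reverse complement of the amino acid response core and begin at position -4 from the gene's start, and in Slc7a7 they are the core itself, beginning at -1. In Slc2a9 they are the reverse complement of the ROR core and begin at -56. Slc1a4 fell, Slc7a7 had a log2 fold change of -0.76 (-0.23 after centring), and Slc2a9 was not called (-0.10) but was called lower after centring (-0.30). A match is a run of letters in a window and not a site of binding.

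Amino acid metabolism and sensing were read in the same way. Over all tested rows 33.3% were called lower and 32.9% higher. With library size only, 1985 of the 13498 tested rows were lower and 7273 higher. Of 15 expressed genes for amino acid metabolism, 8 fell, 4 rose and 3 were not called, or 3 lower and 7 higher with library size only. Bcat1, which starts the breakdown of the branched-chain amino acids that Slc7a5 imports, fell from 60.5, 57.6 and 56.3 to 24.0, 26.1 and 23.4 (log2 fold change -1.21, SE 0.048, limma-trend adjusted p = 7.39e-28). Asl, which makes arginine, fell from 30.5 ± 1.08 to 20.4 ± 0.317. Of 19 expressed genes for amino acid sensing by mTORC1, 6 fell, 3 rose and 10 were not called, or 2 lower and 11 higher with library size only. Sesn1, related to the leucine sensor Sesn2, fell from 144, 150 and 148 to 87.5, 93.4 and 82.7 (log2 fold change -0.74, SE 0.035, limma-trend adjusted p = 2.69e-23). Rragd, a small GTPase gene of that pathway, was 1.33 ± 0.280 in control and 0.552 ± 0.229 in the labelled libraries. It passed the filter through control alone, so its call follows partly from the filter. Rheb, the GTPase that activates mTORC1, rose from 74.2 ± 2.46 to 96.1 ± 1.74 (log2 fold change 0.37). Rheb lies on chromosome 5, whose median was 0.20.

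**Figure D4:**
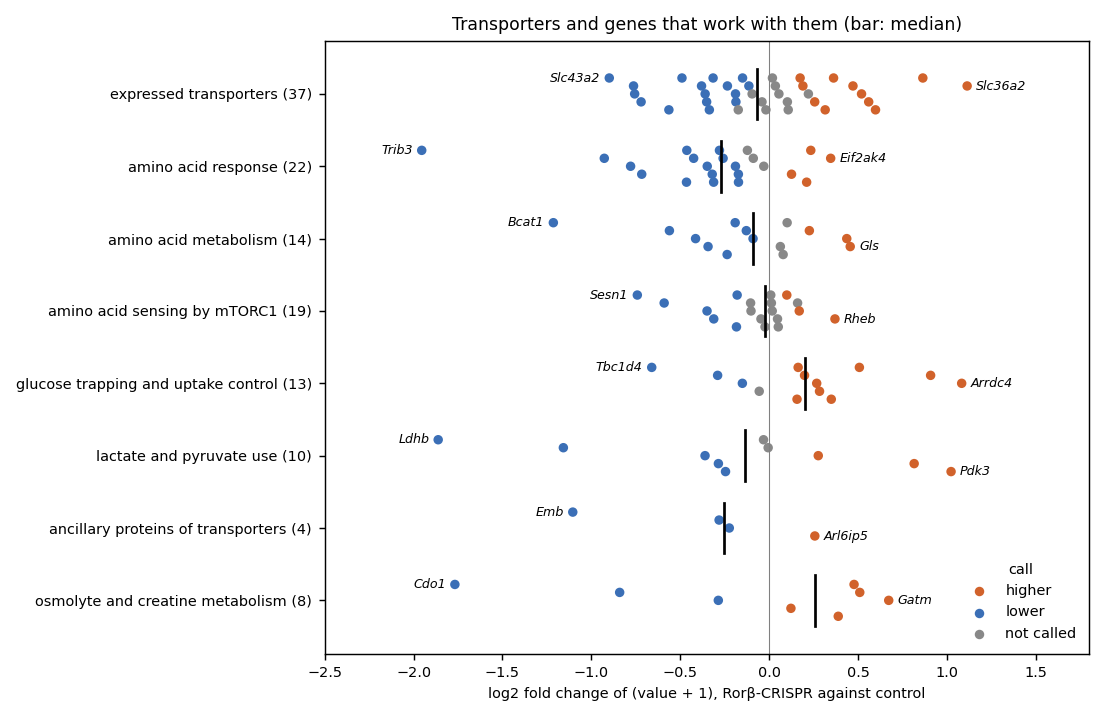
Log2 fold change of (value + 1) for each expressed gene of the transporters and of 7 lists of partner genes, one point a gene, with colours for the call, a bar for the median of each whole list and the lowest and highest plotted gene named. A single gene of the transporters and a single gene of amino acid metabolism are not plotted. The medians are -0.07 for the transporters, -0.27 for the amino acid response and 0.20 for glucose trapping and uptake control.

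By chromosome, 6 expressed transporters lay on X, 14 or 15 and 32 elsewhere. The latter group takes in chromosomes 5 and 13, whose medians were 0.20 each. Off X, 14 and 15, 10 rose and 14 fell, or 75.0% called, against 65.5% of 10708 tested genes there. The median log2 fold change of these 32 was -0.01, against 0.01 for the tested genes there. In the authors' deposited table, 10 expressed transporters passed a q of 0.05 as higher and 15 as lower. All 25 were called in the same direction here, and the 3 called here alone were Slc6a9, Slc38a6 and Slc36a4. The share of all rows that passed the authors' q is not given here, so these counts have no background beside them.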

How the data were processed

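RNA sequencing libraries of 3 control and 3 Rorβ-CRISPR samples were analysed. TopHat2 2.0.6, HTSeq and build mm9 are named in the submitters' processing notes. How strand and overlapping genes were counted was not found in those notes, so reads of genes that overlap on opposite strands may be mixed. Per the file headers, the deposited value of each library is a signal, namely reads scaled by TMM factors. Median counts, a fold (ratio), p-values and q-values were deposited by the authors as well, with no tool named. Every value was a whole multiple of 1 read (100% within 0.01), so reads were recovered, and the medians of these reads in each group matched the authors' median counts in 43346 of 43346 rows.

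Differences were tested with limma-trend (robust) on log2(value + 1). A row entered where 3 or more libraries reached 1, which 13498 did, and p-values were adjusted by Benjamini-Hochberg over these rows, with a threshold of 0.05. The procedure was run on simulated counts with few changed genes, up and down alike, and no shift by chromosome. That run does not check the effects of scaling or of chromosome shifts seen here. Fold changes on this scale understate those of scarce genes. Alternatives were another scaling, filter, pseudocount or threshold, edgeR and DESeq2 on the recovered reads, a replicate block, leaving out each library, and subtracting each chromosome's median. Intervals of a count of 0 (floor of 3 reads) cover counting error only. Members, families and lists were chosen with earlier results of these data known. Genes named by rule were, per family, up to 4 called members without overlap and with a log2 fold change of at least 0.58 in size, and the member of highest mean; the 2 highest members below the filter; and up to 3 called genes of largest change per list. Other expressed members are named for completeness. A few genes that the rule names are not reported here, though counts and medians include them. Chromosomes were matched by symbol to RefSeq GRCm38.p6, for 11967 tested rows (88.7%) and all 103 members.

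Software comprised matplotlib 3.10.9, numpy 2.4.6, pandas 2.3.3, Python 3.11.15, DESeq2 1.42.0, edgeR 4.0.16, limma 3.58.1 and R 4.3.3.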

Additional observations from a re-analysis of the deposited data

How the results depend on the processing

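Calls among the 38 expressed transporters (11 higher, 17 lower) were most sensitive to scaling. With library size only there were 17 higher and 8 lower, and among all tested rows 7273 were higher and 1985 lower, against 4441 and 4501. In that scaling the log2 fold changes of Slc2a10 (0.071), Slc2a9 (0.11), Slc16a6 (0.12), Slc36a4 (0.11), Slc1a4 (0.0351), Slc38a2 (0.21) and Slc38a6 (0.0206) turned to above 0. Library size alone lifted the median gene by 0.22 (log2), and relative to this lift all 28 called members kept their sign. After chromosome centring Slc38a2 (0.24), Slc38a4 (0.0826) and Slc38a9 (-0.16) changed sign. Leaving out one library at a time gave 10 to 12 higher and 16 to 17 lower members, and 4154 to 4286 higher and 4250 to 4321 lower rows of the whole table. The fold change of Slc7a2 then ranged from -0.018 to 0.0502, that of Slc16a6 from -0.119 to 0.0221, that of Slc38a2 from -0.0307 to 0.0028 and that of Slc38a9 from -0.0059 to 0.0627. A fit without 1 library assumes that the remaining ones vary alike. Members called higher and lower were 11 and 17 with DESeq2 size factors and with a pseudocount of 0.1. Without a filter they were 13 and 21 of 82. They were 12 and 16 with edgeR and 11 and 16 with DESeq2. After chromosome centring they were 15 and 17, and at an adjusted p of 0.01 they were 10 and 15. Over all tested rows the counts were 4463 and 4478 with DESeq2 size factors, and 4418 and 4480 with a pseudocount of 0.1. Without a filter, 4631 and 4733 of 25336 rows were called. The counts of rows were 4442 and 4413 with edgeR, and 4201 and 4238 with DESeq2. After centring 4239 and 4293 rows were called, and 3852 and 3934 at an adjusted p of 0.01. With the replicate number as a block 11 and 17 members were called, beside 4502 and 4551 rows. No call of a transporter changed with that block. After each group's mean was taken off every gene, the remainders of same-numbered libraries correlated at -0.056, 0.167 and 0.127. Those of differently numbered libraries correlated at -0.211 to 0.109. These values do not settle whether the libraries were paired. Nothing in the labels says that the numbers pair samples, so they were not taken as pairs. Depth limits the members below the filter, whose highest mean was 0.956. Apart from what each setting changes by construction, the cause of these changes was not tested.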
